A study of Mus musculus with 68 samples.

Results

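The genes described are 10 regulators that hold a mouse oocyte in meiotic arrest or carry it through the meiotic divisions: Gpr3, Pde3a, Wee2, Cdc25b, Ccnb3, Mos, Fbxo43, Bub1b, Aurkc and Plk1. They were chosen by name, 10 of 24941 gene names in the series, and each is listed in all 8 tables. The series profiled polyadenylated RNA with Smart-seq2, which copies whole transcripts from very small samples, in oocytes and embryos that differ in Ezhip. This gene on the X chromosome encodes an inhibitor of PRC2, which places the repressive mark H3K27me3 on histones. The stated question is the role of EZHIP when that mark passes between generations. Oocytes (labelled FGO) came as wild type (WT, 2 libraries), Ezhip Het (2) and Ezhip KO (3). Embryos came as WT, Ezhip mHet and Ezhip mKO, with 2 libraries of each at the 1-cell stage (labelled PN5), at the late 2-cell stage (L2C), in the first E3.5 table and in the epiblast (Epi) and extraembryonic ectoderm (Exe) of day 6.5. The 8-cell stage (8C) had 2 WT, 1 mHet and 3 mKO libraries, the second E3.5 table had 5 of each genotype, and E4.25 had 4 WT, 4 mKO and 1 mHet sample, whose 2 libraries hold identical values. Strain, age, the number of oocytes or embryos in a library and the deleted stretch of Ezhip are given by no source used here, and no agent is labelled on any of the 68 libraries.

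An oocyte waits in prophase of meiosis I because cyclic AMP, made downstream of the receptor Gpr3, keeps the kinase Cdk1 inhibited through Wee2. When the phosphodiesterase Pde3a removes cyclic AMP, Cdc25b takes the inhibitory phosphate off Cdk1 and the oocyte enters M phase, where Aurkc, Plk1, Bub1b and Ccnb3 act on chromosomes, spindle and the exit from meiosis I. Mos and Fbxo43 then hold the egg at metaphase II until fertilisation. Oocytes transcribe little during these steps and draw on stored mRNA, which is largely removed by the 2-cell stage.

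Values are FPKM, read counts per length of a gene and per library size, so levels of different genes can be set side by side within a library. The tables were normalized separately, so levels set across stages are descriptions without a test. In whole oocytes or embryos, fewer cells of a type and less RNA per cell cannot be told apart. Read depth is unknown. Libraries held 4940 to 9804 genes at 1 FPKM or more. Rn45s, the ribosomal RNA precursor, took 0.209 to 6.03% of the summed FPKM from the oocyte to the 8-cell stage. It took 2.13 to 69.5% at E3.5 and 11.7 to 68.6% at E4.25, where WT replicate 3 was highest, followed by WT replicate 4 (60.5%). Ezhip, listed as AU022751, was at 297 and 546 FPKM in WT oocytes, 84.1 and 143 in Het and at most 0.175 in KO. All 8 oocyte markers averaged 1 FPKM or more in oocytes, as did 3 of 7 markers of follicle somatic cells, whose summed level ran from 5.71 to 27.2 FPKM against 7277 to 17847 for the oocyte markers. Epiblast libraries held 6 of 6 epiblast and 0 of 6 visceral endoderm markers at that level, and extraembryonic ectoderm libraries held 6 of 6 trophoblast and 3 of 6 visceral endoderm markers. Of the other tissue's list, 4 of 6 markers also reached it in each. The summed visceral endoderm markers were at 24.9 FPKM in extraembryonic mKO replicate 2. They ran from 0.701 to 3.22 FPKM in the other libraries of that tissue.

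**Figure D1:**
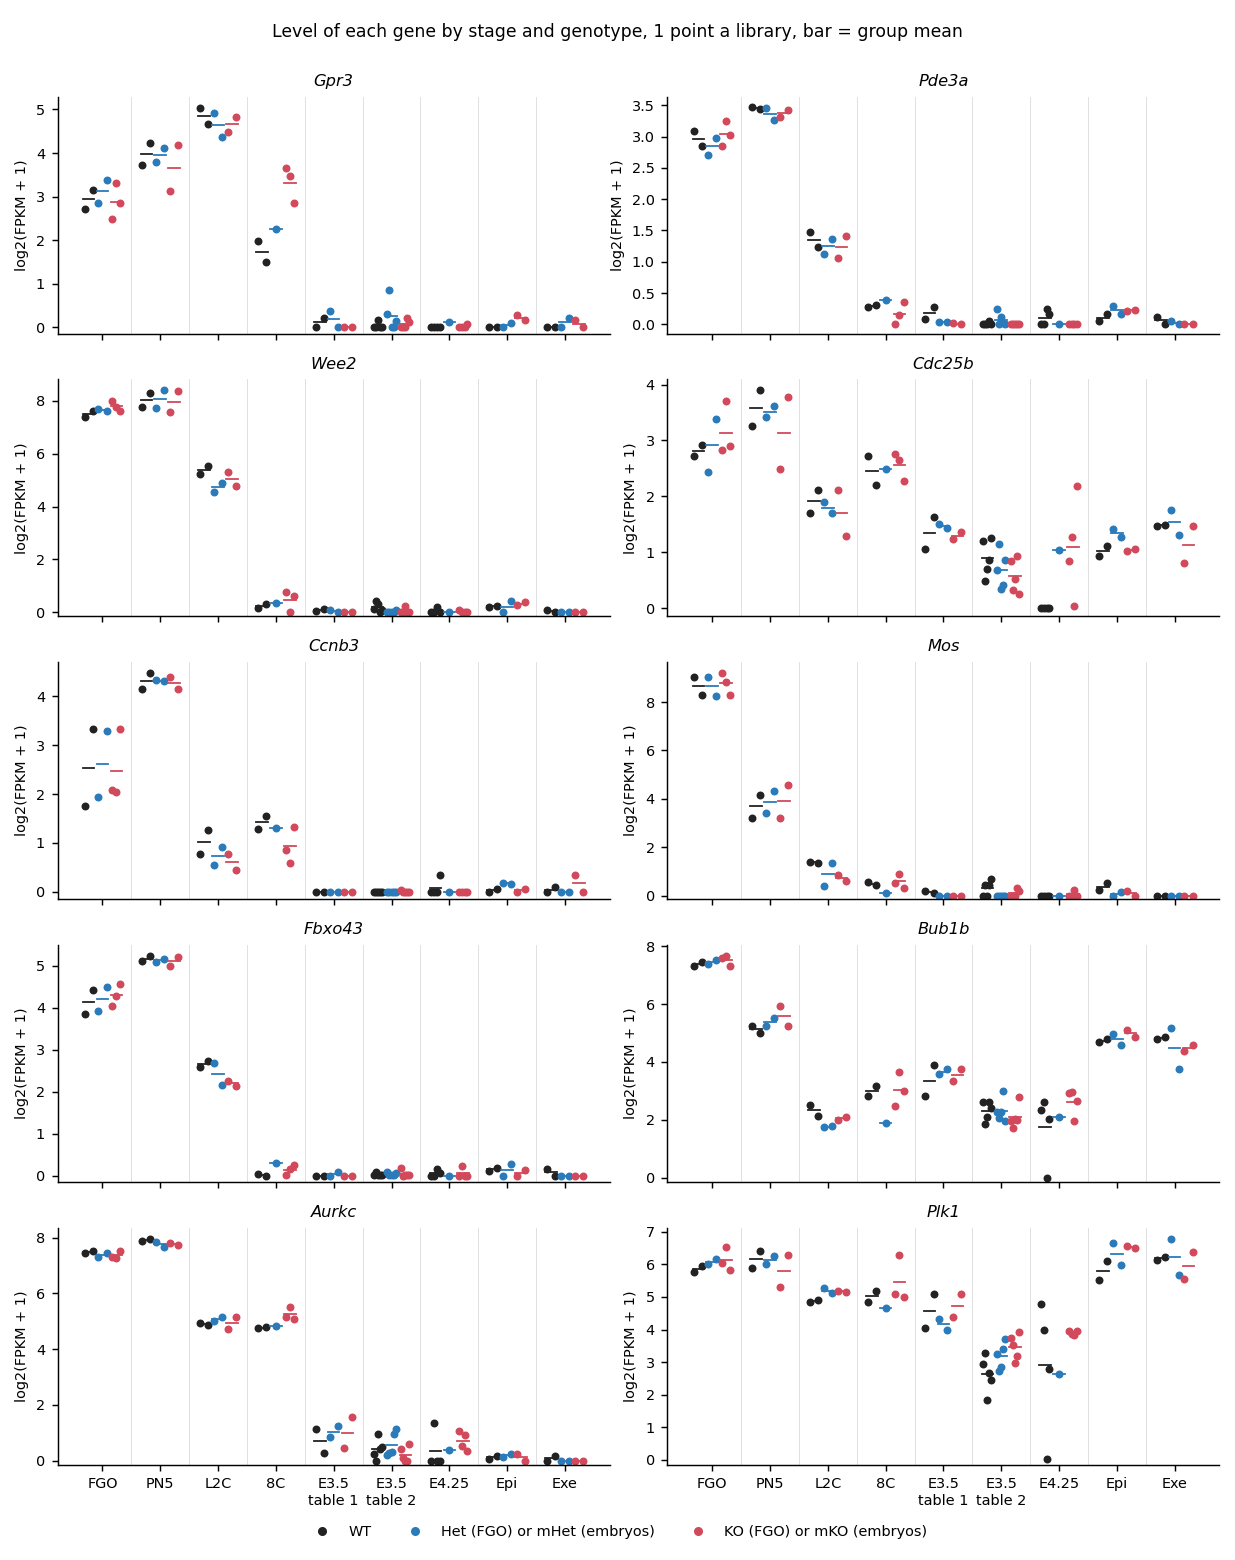
Level of each of the 10 genes as log2(FPKM + 1) in every library (points) with the group mean (short bars), by stage from the oocyte (FGO) to day 6.5 (Epi, Exe) and by genotype. Wild type is black, Het or mHet blue, KO or mKO red. Most genes are high in the oocyte and at the 1-cell stage and near 0 from E3.5 on, whereas Plk1 and Bub1b are high again at day 6.5.

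Gpr3, the receptor that keeps cyclic AMP high in the arrested oocyte, was present from the oocyte to the 8-cell stage and near 0 later. WT libraries held 5.61 and 7.84 FPKM in oocytes, 12.3 and 17.8 at the 1-cell stage, 32.0 and 24.4 at the late 2-cell stage and 2.93 and 1.83 at the 8-cell stage. Unlike the other 9 genes, it had its highest WT mean at the late 2-cell stage (28.2 ± 5.36, SD, n = 2), and its WT libraries did not overlap between any of these 4 stages. From E3.5 on no library of any genotype exceeded 0.796 FPKM, and neighbouring stages overlapped. Its relative Gpr12, also a receptor of the oocyte, was at most 0.989 FPKM in oocytes, below Gpr3 in 7 of 7 libraries.

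Pde3a, the phosphodiesterase that removes cyclic AMP, stood at 7.49 and 6.18 FPKM in WT oocytes and 10.1 and 9.89 at the 1-cell stage. It was at 1.77 and 1.36 FPKM at the late 2-cell stage and at most 0.307 in any 8-cell library. Only the 3 earliest stages were separated in WT. The balance with Pde3b, its close relative, shifted over the same interval: Pde3a was the higher gene in 6 of 7 oocyte libraries, 1 of 6 at the 1-cell stage and 0 of 6 at the late 2-cell stage. There Pde3b stood at 6.74 to 10.7 FPKM.

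Wee2, the oocyte's own inhibitory kinase of Cdk1, was among the more abundant of the 10 genes before the 8-cell stage. WT libraries held 164 and 196 FPKM in oocytes, 215 and 314 at the 1-cell stage, 36.5 and 45.5 at the late 2-cell stage and 0.114 and 0.258 at the 8-cell stage. These 4 stages did not overlap with each other, and of the later ones, none above 0.342 FPKM in any library, those next to each other by mean overlapped. Wee1, the kinase with the same substrate in somatic cells, was at 1.04 to 6.91 FPKM in oocytes and 6.64 to 9.09 at the 8-cell stage. Wee2 exceeded Wee1 in each of the 19 oocyte, 1-cell and late 2-cell libraries and in 0 of 48 libraries from the 8-cell stage on, so the exchange of the higher kinase fell between the late 2-cell and the 8-cell stage in every genotype.

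Cdc25b, the phosphatase that opposes Wee2, was low by comparison and did not follow the same course. WT levels were 5.56 and 6.52 FPKM in oocytes, 8.62 and 13.9 at the 1-cell stage, 2.25 and 3.32 at the late 2-cell stage and 5.58 and 3.6 at the 8-cell stage. WT libraries of oocytes and of the 8-cell stage overlapped, and the late 2-cell libraries lay below both. At day 6.5 it was still at 0.744 to 2.39 FPKM over all 12 libraries. Its relative Cdc25a was the higher gene in 5 of 7 oocyte libraries, 5 of 6 at the 1-cell stage and all 54 libraries from the late 2-cell stage on.

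Ccnb3, the cyclin that female mice need to leave meiosis I, differed between its 2 WT oocyte libraries, at 2.38 and 9.02 FPKM. At the 1-cell stage it reached 16.7 and 21.2, above both oocyte libraries. It was at 0.718 and 1.41 FPKM at the late 2-cell stage and 1.45 and 1.95 at the 8-cell stage, and listed at 0 in all 6 libraries of the first E3.5 table and 14 of 15 of the second. Ccnb1, the main mitotic and meiotic B-type cyclin, was the higher gene in every library, by little in E4.25 WT replicate 3 (0.0453 FPKM, with Ccnb3 listed at 0), and had no value under 823 FPKM at the 1-cell stage.

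Mos, the kinase that starts the MAP kinase pathway of metaphase II arrest, had its highest level in the oocyte and, of the 10 genes, the largest drop from there to the 1-cell stage. WT libraries held 525 and 314 FPKM in oocytes, at percentiles 99.3 to 99.5 of their libraries. They held 8.35 and 16.7 FPKM at the 1-cell stage, 1.62 and 1.56 at the late 2-cell stage and 0.478 and 0.34 at the 8-cell stage. The WT mean of the 1-cell stage was 2.98% of that of the oocyte, whereas 8 of the other 9 genes had a higher WT mean at the 1-cell stage than in the oocyte. That order was the same with each library rescaled to 1 common sum of FPKM, with and without Rn45s.

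Fbxo43, the inhibitor of the anaphase-promoting complex that also holds metaphase II, went the other way between these stages. It stood at 13.3 and 20.4 FPKM in WT oocytes, 33.5 and 36.8 at the 1-cell stage and 5.02 and 5.64 at the late 2-cell stage, with no overlap. From the 8-cell stage on no library exceeded 0.227 FPKM. Fbxo5, the relative that acts on the same complex in mitosis, was the higher gene in every library but 1, E4.25 WT replicate 3, and remained at 62.3 to 86.7 FPKM in the epiblast.

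Bub1b, a kinase-like protein of the spindle checkpoint, was high in the oocyte, low in the cleaving embryo and high again at day 6.5. WT libraries held 159 and 176 FPKM in oocytes, 36.7 and 31.3 at the 1-cell stage, 4.71 and 3.41 at the late 2-cell stage and 6.02 and 8.1 at the 8-cell stage. The epiblast held 24.6 and 26.8 FPKM and the extraembryonic ectoderm 26.8 and 27.8, and these tissues overlapped. Like Mos and no other of the 10 genes, it had a lower WT mean at the 1-cell stage than in the oocyte (20.3% of it). Bub1, its checkpoint relative, was the lower gene in all 13 oocyte and 1-cell libraries and the higher gene in all 12 libraries of the late 2-cell and 8-cell stages and all 12 of day 6.5.

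Aurkc, the Aurora kinase of germ cells, stood at 173 and 183 FPKM in WT oocytes and 233 and 249 at the 1-cell stage. It was at 29.7 and 27.9 FPKM at the late 2-cell stage and 25.9 and 26.5 at the 8-cell stage. That 8-cell mean was 14.7% of the oocyte mean, a share above those of Bub1b (4.22%), Pde3a (3.26%) and Wee2 (0.103%) and below those of Cdc25b (76.0%), Plk1 (55.2%), Gpr3 (35.4%) and Ccnb3 (29.8%). In the WT libraries of the first E3.5 table it was at 1.2 and 0.193 FPKM. Its ubiquitous counterpart Aurkb was at 2.73 to 7.72 FPKM in oocytes, 27.0 to 31.4 at the late 2-cell stage, 5.21 to 14.2 at the 8-cell stage and 48.7 to 60.1 in the epiblast. Aurkc was the higher kinase in all 13 oocyte and 1-cell libraries, 4 of 6 late 2-cell libraries and again in 6 of 6 at the 8-cell stage, but in 0 of 42 libraries from E3.5 on.

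Plk1, the Polo kinase of both meiotic and mitotic M phase, was present at every stage. Its WT means were 57.2 ± 5.06 FPKM in oocytes, 71.4 ± 18.8 at the 1-cell stage, 28.2 ± 0.831 at the late 2-cell stage and 31.6 ± 5.31 at the 8-cell stage (SD, n = 2 each). At day 6.5 it was at 55.9 ± 16.1 in the epiblast and 72.1 ± 3.2 in the extraembryonic ectoderm. Ordered by WT mean, from extraembryonic ectoderm through the 1-cell stage and oocytes to the epiblast, each overlapped with the next, whereas the tissues of day 6.5 did not overlap with each other. The lowest values came from the second E3.5 table, at 2.56 to 8.76 FPKM in WT, and from the E4.25 WT library with the most Rn45s, at 0.0277.

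**Figure D2:**
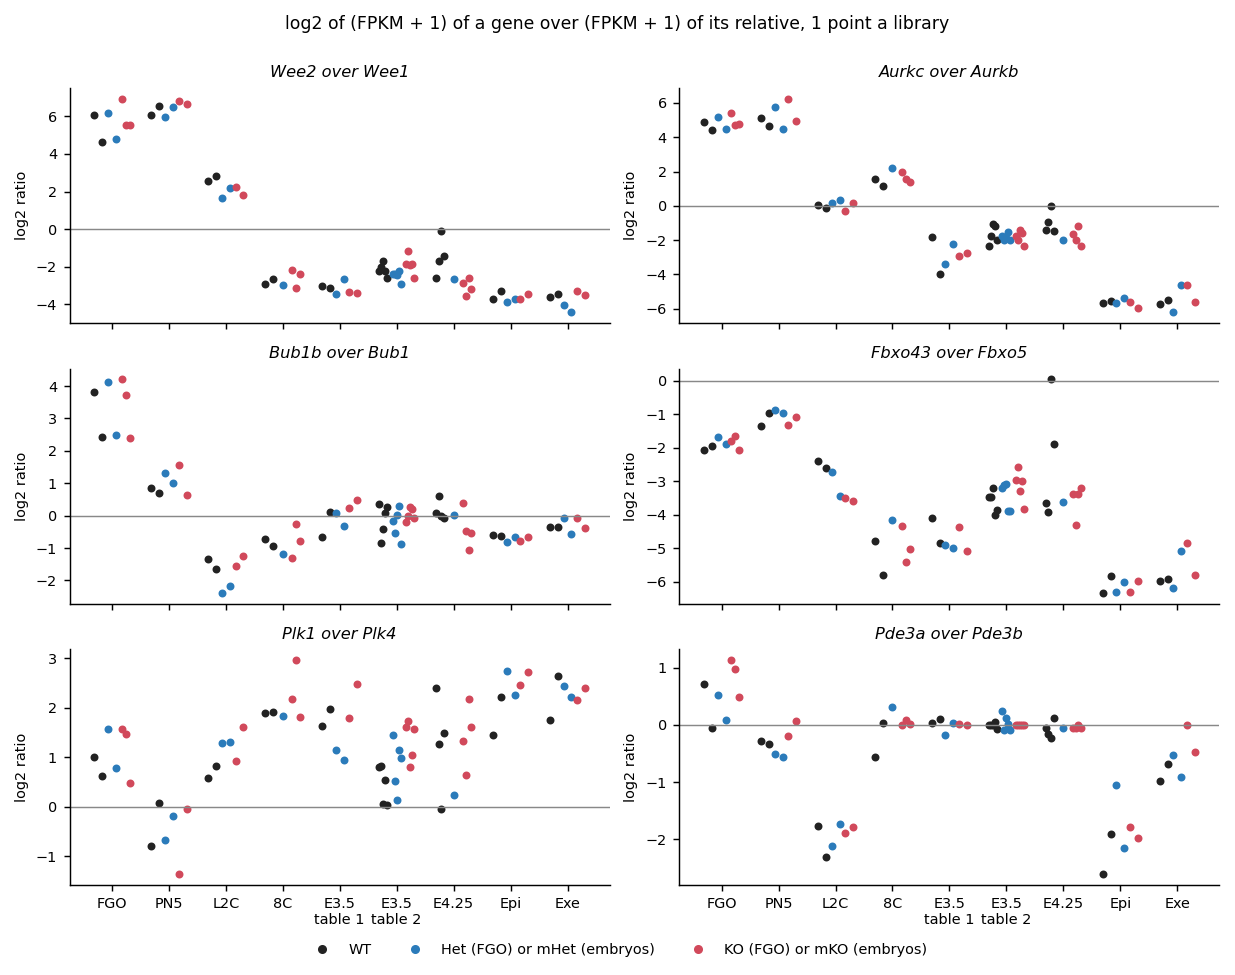
log2 ratio of (FPKM + 1) of a gene to that of its relative within each library, by stage and genotype, with a line at equal levels. Wee2 lies above Wee1 up to the late 2-cell stage and below it from the 8-cell stage, and Aurkc lies above Aurkb in oocytes, 1-cell and 8-cell embryos.

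Smart-seq2 copies RNA from its poly(A) tail, and many stored oocyte mRNAs change tail length at maturation through a cytoplasmic polyadenylation element, read here as TTTTAT or TTTTAAT, near the hexamer AATAAA or ATTAAA that directs 3′ end formation. The last 100 bases of the longest protein-coding transcript of each gene (GENCODE M21, GRCm38) were searched on the sense strand for both. The element occurred in 4 of the 10 genes, Wee2, Ccnb3, Bub1b and Aurkc, and in 16.6% of the 21877 genes with such a transcript. The hexamer occurred in 9 of the 10, all but Pde3a, and in 74.8% of those genes. The 30 bases that end with the last hexamer are shown for the 4 oocyte genes of highest level, as DNA letters with both elements in capitals. The last bases of an element can also be the first of a hexamer, which happens in none of the 4.
Mos: taccactagggcatatttttaggaAATAAA
Wee2: cataTTTTAATccagatcattgtaAATAAA
Bub1b: ctctcctttcactgtgtaTTTTATAATAAA
Aurkc: tttctcTTTTATgaagtgatgttaATTAAA
In Bub1b the element begins 6 bases before the hexamer and in Aurkc 18 bases before it. In Wee2 a TTTTAAT lies upstream of the hexamer and a TTTTAT follows it. Neither set of letters occurs in the last 100 bases of Mos, which says only that they are not in this window. Whether tail length contributed to the levels above was not tested.

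Bub1b and Plk1, with the highest levels of the 10 at day 6.5, also share letters in their promoters. The RefSeq table of promoters (GRCm38.p6, 250 bases before to 50 after the start) held 7 of the 10 genes. TTTGAA, the core of the cell cycle genes homology region known from promoters of genes of G2 and M phase, was searched on both strands, as was CCAAT, a common promoter box. These motifs can share a base at their ends. TTTGAA was in the Bub1b and Plk1 windows alone among the 7, and in 17.9% of all 32851 promoters. CCAAT was in 6 of the 7, all but Ccnb3, and in 37.4% of all. Both windows are shown with the matches in capitals, on the strand of the gene; ATTGG is the reverse complement of CCAAT.
Bub1b, chr2:118597961-118598260, plus strand: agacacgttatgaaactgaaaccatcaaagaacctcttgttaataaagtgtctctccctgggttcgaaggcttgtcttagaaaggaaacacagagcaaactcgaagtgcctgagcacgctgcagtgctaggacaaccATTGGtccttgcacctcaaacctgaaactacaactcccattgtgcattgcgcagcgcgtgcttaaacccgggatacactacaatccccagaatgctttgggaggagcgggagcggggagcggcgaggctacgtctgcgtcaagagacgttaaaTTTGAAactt
Plk1, chr7:122159185-122159484, plus strand: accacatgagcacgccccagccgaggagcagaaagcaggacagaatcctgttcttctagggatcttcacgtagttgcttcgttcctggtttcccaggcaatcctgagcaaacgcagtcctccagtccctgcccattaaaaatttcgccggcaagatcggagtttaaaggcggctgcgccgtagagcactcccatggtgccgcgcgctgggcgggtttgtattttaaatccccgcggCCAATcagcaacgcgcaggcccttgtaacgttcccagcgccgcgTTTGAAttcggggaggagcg
TTTGAA begins 41 bases after the start of Bub1b and 31 bases after that of Plk1. A match is a description of the sequence and not evidence of a bound site.

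The oocyte libraries fell into sets with consecutive library names, 1 to 4 (WT replicate 1, Het replicate 1, KO replicates 1 and 2) and 5 to 7 (WT replicate 2, Het replicate 2, KO replicate 3), and several of the genes followed the set rather than the genotype. Libraries of the second set had 9432 to 9801 genes at 1 FPKM or more, and those of the first 7316 to 8443. Ccnb3 was at 2.38, 2.83, 3.21 and 3.09 FPKM in the first set and 9.02, 8.72 and 9.08 in the second, with a WT, a Het and a KO library in each. Mos was at 525, 528, 585 and 453 FPKM in the first set and 314, 306 and 313 in the second, 1.68-fold lower. The sets thus did not overlap for either gene, while WT, Het and KO libraries did. Ccnb3, Fbxo43 and Aurkc lay wholly above in the second set, as did 73.3% of all genes tested, so their direction is that of most genes. Mos lay wholly below, as did 1.97% of all genes tested. The other 6 genes overlapped. The summed level of the oocyte markers was also lower in the second set, at 7277 to 8028 FPKM against 15873 to 17847 in the first. That of the follicle cell markers was higher, at 20.5 to 27.2 against 5.71 to 10.0 FPKM.

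At the 1-cell stage the libraries named 8 to 10 held replicate 1 of each genotype and those named 11 to 13 replicate 2. Mos stood at 8.35, 9.73 and 8.34 FPKM in the first and 16.7, 19.1 and 22.8 in the second, 2.22-fold higher. Wee2 stood at 215, 211 and 187 against 314, 333 and 328 FPKM, 1.59-fold higher. Gpr3, Cdc25b, Mos, Wee2, Fbxo43 and Plk1, 6 of the 10, lay wholly above in the second set, as did 25.3% of all genes tested. Pde3a, Ccnb3, Bub1b and Aurkc overlapped. Neither set is a labelled batch beyond the library names, and every genotype is in both, so the genotype comparisons below span them.

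**Figure D3:**
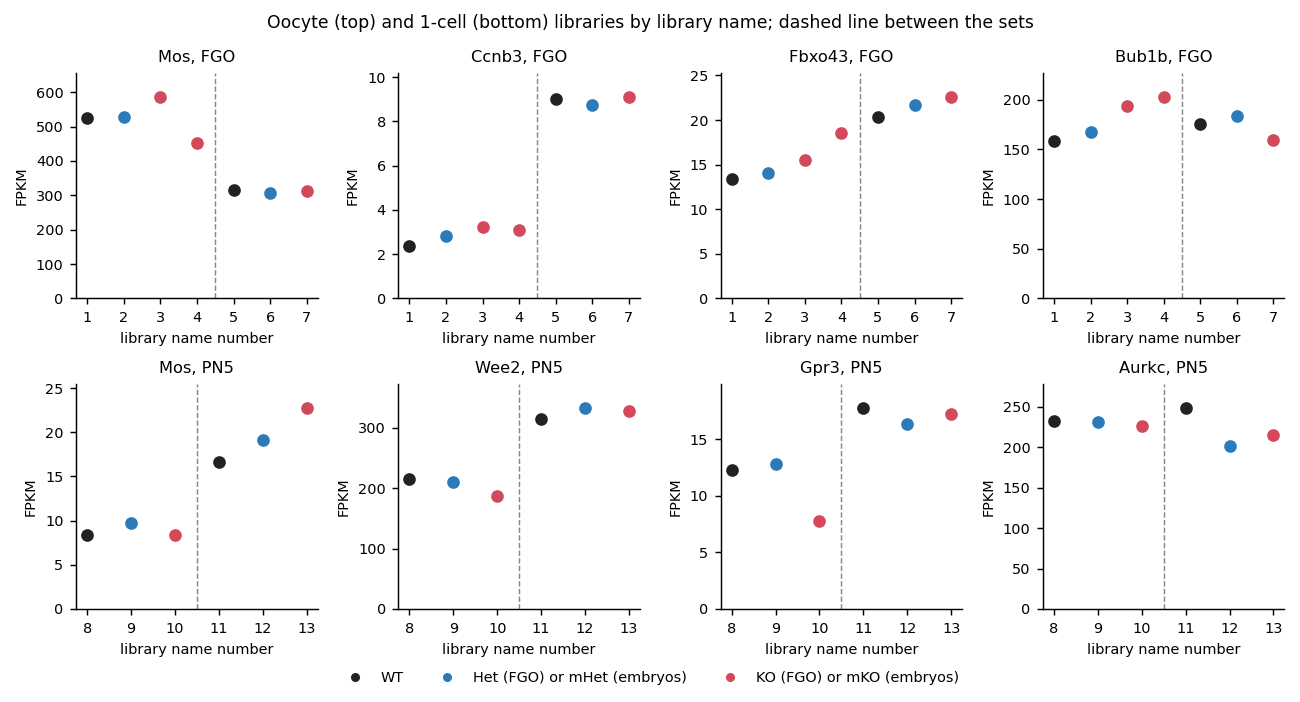
FPKM of 4 genes in each oocyte library (top) and 4 in each 1-cell library (bottom) against the number in the library name, coloured by genotype, with a dashed line between the sets. Mos and Ccnb3 in oocytes and Mos, Wee2 and Gpr3 at the 1-cell stage change at the line, and the genotypes on each side of it lie close together. Bub1b in oocytes and Aurkc at the 1-cell stage do not.

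Ezhip genotype was compared within each table by limma on log2(FPKM + 1), over all genes that reached 1 FPKM in 2 or more libraries, and changes below are on that scale, which understates those of low genes. None of the 10 genes passed an adjusted p of 0.05 in any of 25 comparisons, 23 of them between genotypes and the others involving both tissues of day 6.5. All 10 were tested in oocytes and at the 1-cell stage, 9 at the late 2-cell stage (not Ccnb3), 6 at the 8-cell stage, 4 in the first E3.5 table and at E4.25, and 3 in the second E3.5 table and at day 6.5. The 3 tested at every stage were Cdc25b, Bub1b and Plk1. Of 142 tests of a member over these comparisons, which share libraries, 4 had an unadjusted limma p under 0.05. In mKO against WT these were Gpr3 at the 8-cell stage, Plk1 in the second E3.5 table and Cdc25b at E4.25. In mHet against WT it was Wee2 at the late 2-cell stage.

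**Figure D4:**
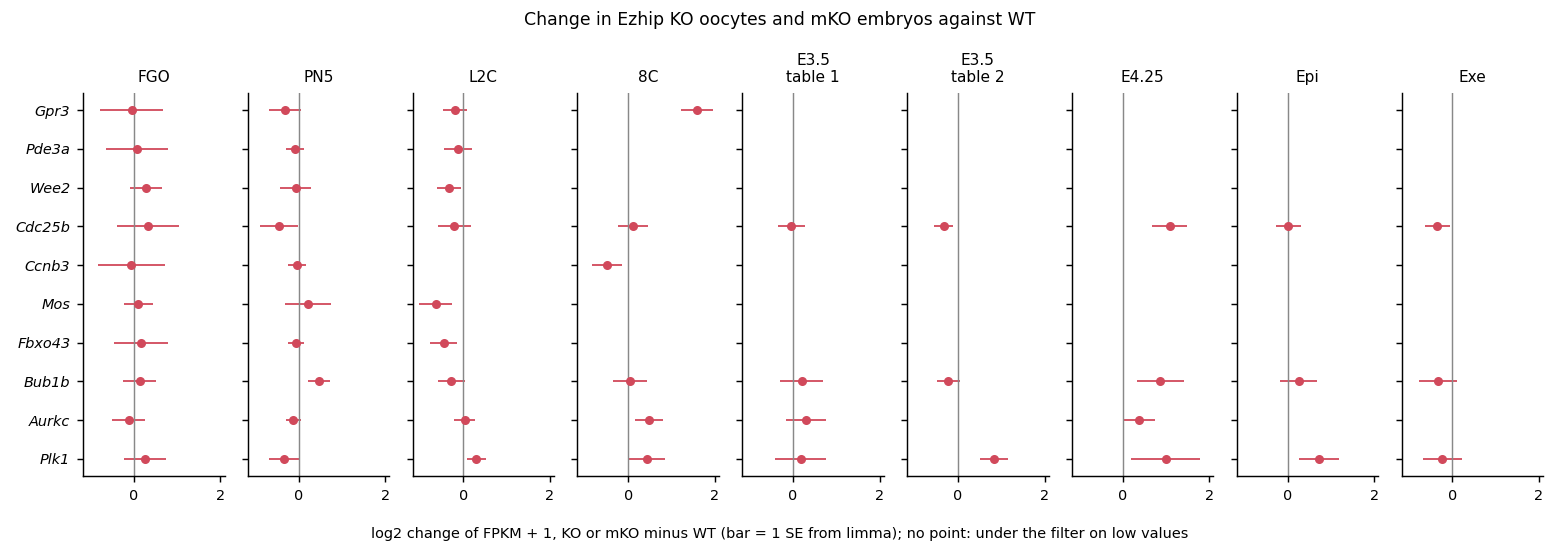
Difference of mean log2(FPKM + 1) between KO (oocytes) or mKO (embryos) and WT for each gene that was tested, by stage, with 1 SE from limma. Gpr3 at the 8-cell stage has the largest change, at 1.58, and in oocytes every bar spans 0.

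In oocytes the KO and WT libraries overlapped for each of the 10 genes, and 0 were called, against 0.0102% of all genes tested. The changes ran from -0.12 (Aurkc, SE 0.38) to 0.33 (Cdc25b, SE 0.73), with a median of 0.12 over the 10 genes and -0.05 over all genes. Mos was at 585, 453 and 313 FPKM in KO and 525 and 314 in WT, a change of 0.10 (SE 0.34, limma adjusted p = 1). Bub1b was at 194, 202 and 159 FPKM in KO and 159 and 176 in WT (0.14, SE 0.38). For Het against WT and KO against Het the calls were also 0 of 10, against 0% and 0.0102% of all genes. The SEs of KO against WT ran from 0.34 (Mos) to 0.77 (Ccnb3). With the library set described above as a term, that of Mos was 0.13 (change -0.02) and that of Ccnb3 0.31 (change 0.17), and again none was called.

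At the 1-cell stage 0 of 10 genes were called in mKO, mHet or mKO against mHet, where 0.0116%, 0% and 0.0116% of all genes were. Bub1b was at 59.5 and 37.4 FPKM in mKO, 37.3 and 45.1 in mHet and 36.7 and 31.3 in WT. Both mKO libraries lay above both WT libraries, as in 8.81% of all genes tested, by 0.47 (SE 0.26, limma adjusted p = 1.0). Pde3a and Aurkc lay wholly below, as in 16.9% of all genes. Aurkc stood at 226 and 215 FPKM in mKO and 233 and 249 in WT. The fits of this stage had no term for the library set described above.

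At the late 2-cell stage 0 of 9 genes were called in mKO, mHet or mKO against mHet, against 0.00969%, 0% and 0.0872% of all genes. Of the maternal genes, Mos stood at 0.799 and 0.534 FPKM in mKO and 1.62 and 1.56 in WT, Fbxo43 at 3.79 and 3.43 against 5.02 and 5.64, and Bub1b at 3.01 and 3.27 against 4.71 and 3.41. These 3 lay wholly below WT, as did 23.3% of all genes tested, and Plk1 lay wholly above (35.1 and 34.9 against 27.7 and 28.8 FPKM), as did 13.7%. The changes of Mos (-0.64, SE 0.38, limma adjusted p = 0.782) and Fbxo43 (-0.46, SE 0.32, adjusted p = 0.837) were under 2 SE. Both mKO values of Mos lay under the filter of 1 FPKM, which Mos met only through other genotypes. The lowest Mos value at this stage, 0.333 FPKM, was in an mHet library.

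Wee2 at that stage stood at 22.6 and 28.5 FPKM in mHet, 38.7 and 26.7 in mKO and 36.5 and 45.5 in WT. The mHet libraries lay below WT by 0.66 (SE 0.27; unadjusted p = 0.039, limma adjusted p = 1.0), a result that 2.94% of all genes reached before adjustment, and the mKO libraries lay between and overlapped with WT. In mHet, Wee2 and Bub1b lay wholly below WT, as did 14% of all genes tested, and Aurkc and Plk1 wholly above, as did 16.4%.

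At the 8-cell stage Gpr3 showed the largest difference of these genes between genotypes on the log2(FPKM + 1) scale. With a pseudocount of 0.1, Cdc25b at E4.25, where WT is listed at 0, exceeded it. Gpr3 stood at 11.5, 10.1 and 6.17 FPKM in mKO, 3.76 in mHet and 2.93 and 1.83 in WT. Every mKO library lay above the mHet and both WT libraries. The means were 9.26 ± 2.77 (SD, n = 3) and 2.38 ± 0.779 (n = 2), a change of 1.58 (SE 0.36), and its unadjusted p of 0.000987 ranked 15 among 8319 genes. It did not pass (limma adjusted p = 0.532). Over 11 alternatives the limma adjusted p ranged from 0.0039 to 1.0 and the change from 1.35 to 1.91. The lowest came with the replicate number as a block, although nothing shows that the numbers pair these libraries. Library names 20 to 23 held mKO libraries at 11.5 and 10.1 FPKM and a WT library at 2.93, and names 24 and 25 an mKO library at 6.17 and a WT library at 1.83. With that set as a term the change was 1.48 (SE 0.31, limma adjusted p = 0.173). In WT, Gpr3 was lower at the 8-cell than at the late 2-cell stage, and the late 2-cell mKO libraries (21.5 and 27.6) overlapped with WT (32.0 and 24.4).

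Of the other genes at the 8-cell stage, Aurkc was at 34.9, 44.4 and 32.9 FPKM in mKO, 27.2 in mHet and 25.9 and 26.5 in WT. All mKO libraries lay above WT here too, a change of 0.49 (SE 0.32, limma adjusted p = 0.999). These 2 of 6 genes lay wholly above WT, as did 7.46% of all genes tested, 1 of 6 had an unadjusted p under 0.05, against 4.01%, and 0 of 6 were called, against 0.012%. Plk1 was at 32.9, 77.1 and 30.9 FPKM in mKO and 27.8 and 35.3 in WT, so its higher mKO mean (47.0 ± 26.1) came from replicate 2. Ccnb3 was at 0.809, 0.513 and 1.52 FPKM in mKO and 1.45 and 1.95 in WT, with overlap.

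**Figure D5:**
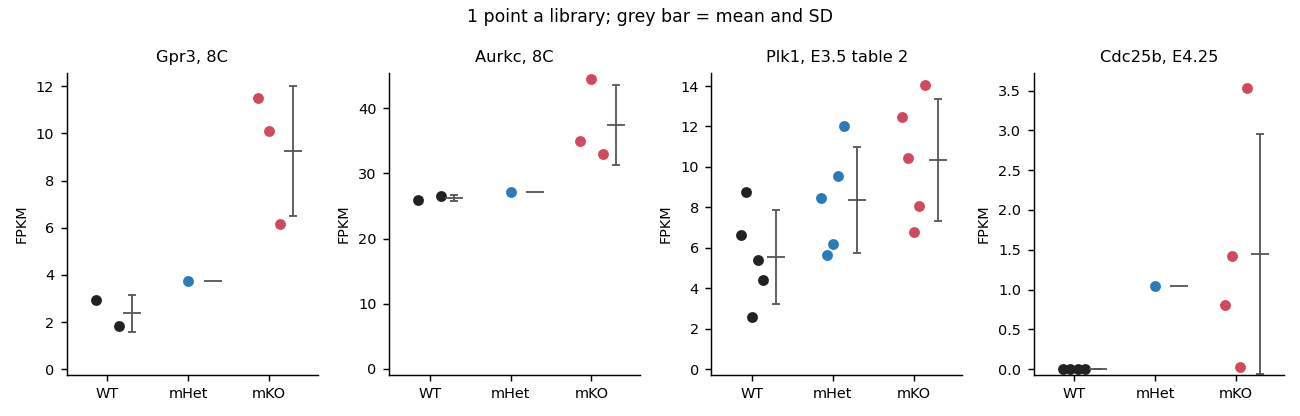
FPKM of Gpr3 and Aurkc at the 8-cell stage, Plk1 in the second E3.5 table and Cdc25b at E4.25 in each library (points) by genotype, with mean and SD (grey) where a group has more than 1 library. The 3 mKO libraries lie above WT for Gpr3 and Aurkc, the groups overlap for Plk1, and Cdc25b is listed at 0 in all 4 WT libraries.

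At E3.5 the genes tested were Cdc25b, Bub1b and Plk1, and in the first table also Aurkc. There Plk1 stood at 19.9 and 33.1 FPKM in mKO and 15.4 and 33.0 in WT, and Bub1b at 9.22 and 12.5 against 6.06 and 13.9, both with overlap. None of the 4 tested genes was called in mKO, mHet or mKO against mHet, against 0.0407%, 0% and 0.0407% of all genes. In the second table Plk1 ran from 6.77 through a median of 10.4 to 14.1 FPKM in mKO (n = 5) and from 2.56 through 5.39 to 8.76 in WT (n = 5), with mHet between, at 5.62 to 12.0. The groups overlapped. The change of 0.83 (SE 0.32) had an unadjusted p of 0.0191, which 5.76% of all genes reached, and did not pass (limma adjusted p = 0.662, and 0.342 to 0.998 over the alternatives). None of the 3 genes was called in this table, against 0.0539% of all genes in mKO, 0% in mHet and 0.0108% in mKO against mHet. Rn45s took 9.19 to 69.5% of the summed FPKM there, and its part in these levels was not tested.

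At E4.25, 14.6% of all genes were called and the median change of all genes was 0.74, which was 0.06 after median ratio scaling and 0.44 with Rn45s removed. Rn45s took 21.0 to 68.6% of the summed FPKM in WT and 11.7 to 52.4% in mKO, and its part in these changes was not tested. None of the 4 tested members was called. Aurkc, Bub1b and Plk1 had changes of 0.38 (SE 0.38), 0.87 (SE 0.55) and 0.99 (SE 0.79), set against that median. Cdc25b was listed at 0 in all 4 WT libraries, at 1.05 in mHet and at 0.803, 1.42, 0.0305 and 3.54 FPKM in mKO. Its mKO libraries lay wholly above, as did those of 21.6% of all genes. Its unadjusted p of 0.0167 was reached by 35.5%, and Cdc25b did not pass (limma adjusted p = 0.0772). With WT at 0, Cdc25b met the filter of 1 FPKM only through mHet and mKO libraries. With no filter on low values its limma adjusted p was 0.218. Over 15 alternatives the limma adjusted p ran from 0.0251, without mKO replicate 3, the library near 0, to 0.329 with median ratio scaling, and the first was the only one to pass. Plk1 was at 14.6, 13.6, 13.1 and 14.4 FPKM in mKO and 26.8, 14.8, 0.0277 and 5.97 in WT. Its mKO libraries were close to each other while the WT libraries spanned them on both sides. Bub1b was at 6.57, 6.7, 2.87 and 5.3 FPKM in mKO and 4.11, 5.12, 0 and 3.07 in WT, with overlap.

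At day 6.5 RNA of the 3 tested genes was detected in both tissues. In the epiblast Plk1 stood at 92.8 and 89.9 FPKM in mKO, 98.8 and 62.6 in mHet and 44.6 and 67.3 in WT, and Bub1b at 33.7 and 28.4 in mKO and 24.6 and 26.8 in WT. Both lay wholly above WT, as did 20.6% of all genes tested. The change of Plk1 was 0.73 (SE 0.45, limma adjusted p = 1). None was called in mKO, mHet or mKO against mHet, against 0.00907%, 0.0272% and 0% of all genes.

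In the extraembryonic ectoderm Bub1b stood at 19.8 and 23.2 FPKM in mKO, 35.0 and 12.6 in mHet, on both sides of the others, and 26.8 and 27.8 in WT, and Cdc25b at 0.744 and 1.76 against 1.78 and 1.81. In mKO both lay wholly below WT, as did 37.4% of all genes tested. The median change of all genes there was -0.19. None was called in mKO, mHet or mKO against mHet, against 0%, 0% and 0.00907% of all genes. In the same order of libraries, Rn45s took 8.11 and 3.32% of the summed FPKM in mKO, 1.46 and 11.6% in mHet and 1.84 and 2.43% in WT. Its part in these levels was not tested. The mKO changes of Plk1 in the 2 tissues differed by -0.96 (extraembryonic ectoderm minus epiblast, SE 0.64), that of Bub1b by -0.59 (SE 0.61) and that of Cdc25b by -0.37 (SE 0.40). The test of that difference called none of the 3 (limma adjusted p = 0.972 for each), against 0% of all genes. Between the tissues themselves, over 6 libraries each, 33.5% of all genes were called and 0 of the 3 members. Bub1b differed by -0.25 (SE 0.25), Plk1 by -0.09 (SE 0.26) and Cdc25b by 0.25 (SE 0.17).

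A wider list of 58 genes of meiotic arrest, resumption, the spindle checkpoint and metaphase II arrest was read beside the members. It was also chosen with earlier results known. Of its 49 to 54 genes tested in each table, 0 were called in oocytes or at the 1-cell, late 2-cell or 8-cell stage, in either E3.5 table, or between genotypes in either tissue of day 6.5. In KO oocytes 25 of 53 were higher and 28 lower, with a median change of -0.01. The smallest p in KO against WT belonged to Btg4, an adaptor of maternal mRNA decay, and was large (limma unadjusted p = 0.475). Btg4 stood at 1558 to 2827 FPKM in KO and 1268 and 2701 in WT, with overlap. This fit had no term for the library set.

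At E4.25, 10 of the 51 tested genes of that list rose and 1 fell in mKO, against 14.3% and 0.251% of all genes called in those directions, with a median change of 1.07 beside 0.74 for all genes. Those that rose included Pkmyt1, the membrane-bound inhibitor of Cdk1 (4.12 ± 1.63 against 0.583 ± 0.77 FPKM, SD, n = 4 each; 1.74, SE 0.42, limma adjusted p = 0.0165), Bora, a cofactor of Aurora A (4.58 ± 1.59 against 0.861 ± 0.761; 1.63, SE 0.41, adjusted p = 0.0204), and Cdc25c. Mapk3, a MAP kinase downstream of Mos, fell from 19.5 ± 15.1 to 1.56 ± 0.868 FPKM (-2.53, SE 0.66, limma adjusted p = 0.0222), with overlap. After median ratio scaling 0 of the list were called, and with Rn45s removed Mapk3 alone was. The count of 11 became 15 without WT replicate 1, 0 without mKO replicate 4, 1 without mKO replicate 2, 2 without mKO replicate 1, 3 without WT replicate 2 and 5 without WT replicate 3. Over these settings the count of all genes called ran from 321 (without mKO replicate 4) to 1751 (without WT replicate 1). It was 1394 with every library.

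Between the tissues of day 6.5, 1 of 53 genes of the list was higher in the extraembryonic ectoderm and 8 were lower, against 14.2% and 19.4% of all genes. The lower ones were Prkar2b, Prkaca and Prkacb, subunits of the kinase that cyclic AMP activates, Pde3b, Rps6ka2, Mapk3, the checkpoint kinase Ttk and Gnas, the stimulatory G protein that Gpr3 couples to. Gnas was at 49.0 ± 17.3 against 103 ± 13.3 FPKM in the epiblast (SD, n = 6 each; -1.12, SE 0.22, limma adjusted p = 0.00163). Pde3b was at 0.58 ± 0.4 FPKM against 3.44 ± 1.24 in the epiblast (-1.48, SE 0.21, limma adjusted p = 0.000141). Map2k1, a kinase between Mos and the MAP kinases, was the higher one, at 69.3 ± 16.7 against 42.5 ± 6.38 FPKM (0.67, SE 0.22, limma adjusted p = 0.0367), with overlap. Without the mHet extraembryonic library of replicate 1, more of the list were called, and so were more of all genes. That fit leaves 1 mHet library in the tissue.

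The genes whose WT course over the 9 stage and tissue groups was most like that of a member differed in number between members. The measure was Pearson's r of the group means of log2(FPKM + 1), over 6935 genes listed in all tables with a WT mean of at least 10 FPKM at some stage. No library enters more than 1 point. Only the tissues of day 6.5 share a table, so the other points were normalized separately. Pde3a, Fbxo43 and Wee2 had 423, 402 and 351 genes at an r of 0.95 or more, and were themselves alike (r from 0.975 to 0.992). The nearest were Nlrp4e, A330093E20Rik and Nlrp4a for Pde3a, Gm5083, E330012B07Rik and Tmem169 for Fbxo43 and Tcl1b4, Kcnh1 and Tgfb2 for Wee2, with r of 0.998 to 0.999. The other 7 had 13 to 53 such genes each. Mos had 39, led by BC048602, Cage1 and E330017A01Rik (r from 0.992 to 0.997). Gpr3 had 44, led by Ubn1, Stk35 and Tex11 (0.986 to 0.996), and Ubn1 had WT means of 6.38 FPKM in oocytes, 17.2 at the late 2-cell stage and 4.22 at the 8-cell stage. Bub1b had 13, led by Pard6a, Lipt2 and Tyw1 (0.968 to 0.985), Cdc25b 15, led by Kif23, Msl3 and Slc4a1ap (0.97 to 0.987), and Plk1 17, led by Rras2, Pithd1 and Cops2 (0.972 to 0.981). Ccnb3 had 42, led by Gm13752, Gm14164 and Serpinb1c (0.983 to 0.991), and Aurkc 53, led by Susd3, Lonrf3 and Rgn (0.984 to 0.991).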

How the data were processed

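Values are FPKM as deposited by the authors in 8 tables, per the file headers. The tools named are HISAT2 2.2.1, HTSeq 0.6.0 and Trim Galore 0.4.2, per the submitters' processing notes, and mm9 and hg19 are named as builds with no role. What computed FPKM, with which annotation, strand and multimapping settings, is not stated. Depth is unknown: the commonest ratio of low values covered at most 1.181% of genes.

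Columns were matched by title, and Epi columns to their group alone. Names turned into dates (25, 27 and 27 in 3 tables) were dropped. The identical E4.25 mHet libraries counted as 1, so 67 of 68 were used. Each table was fitted alone on log2(FPKM + 1) of the deposited values by limma 3.58.1 (R 4.3.3), with all groups in the fit (both tissues of day 6.5 in 1 fit), over genes at 1 FPKM in 2 libraries. The single mHet samples of 8C and E4.25 entered without a test of their own. P-values are two-sided with Benjamini-Hochberg adjustment over all genes kept, at a threshold of 0.05. Whether libraries come from separate animals is not given, so p-values measure the spread between samples, which may be technical. The fit was tested on simulated data. Alternatives were a pseudocount of 0.1, no filter, median ratio scaling, Rn45s removed, the compared groups alone, a replicate block, the library set as a term, and leaving out each library. Tables, sequences and figures used Python 3.11.15, pandas 2.3.3, numpy 2.4.6 and matplotlib 3.10.9.

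The members and lists were chosen with earlier results of these data known. All members are described in every comparison. From the pathway list, the genes called, or else those of smallest p, could be named, and for each member the 3 genes of highest r.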

Additional observations from a re-analysis of the deposited data

Results flagged for a closer look

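Of 16 combinations of a gene with a group of 4 or more libraries, 3 held a library far from the others. The nominal rate of the rule is about 1 in 20 for normally spread values. The combinations share libraries and are not independent, so the count cannot be tested against that rate. Bub1b stood at 6.925 FPKM in 1 mHet library of the second E3.5 table, where the next was at 3.859, and at 5.855 in 1 mKO library, where the next was at 3.05. Aurkc stood at 1.513 FPKM in 1 WT library of E4.25 and was listed at 0 in the other 3.

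Some genes lay wholly above WT in the mKO libraries of one stage and wholly below in another, as differences of mean log2(FPKM + 1). Bub1b differed by 0.4664 at the 1-cell stage and 0.2601 in the epiblast, and by -0.2783 at the late 2-cell stage and -0.3327 in the extraembryonic ectoderm. The test of the difference between the tissues of day 6.5 did not pass (-0.59, SE 0.61, limma adjusted p = 0.972), and the difference between the other stages was not tested. Cdc25b differed by 1.087 at E4.25, where WT was listed at 0, and by -0.3484 in the extraembryonic ectoderm. Aurkc differed by 0.4853 at the 8-cell stage and by -0.1225 at the 1-cell stage. For both genes the difference between the stages was not tested, since their tables were normalized separately.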

How the results depend on the processing

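Depth and the number of libraries limit these results: most groups have 2, and counting error cannot be given. Of 1455 changes of members recomputed under an alternative, 1293 kept their sign and 162 did not. None of the 162 passed the threshold before or after (lowest limma adjusted p after, 0.332), and 4 of the 1455 newly passed.

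The count of members called was 0 in every comparison as first fitted. It was 1 at the 8-cell stage (mKO against WT) with the replicate block, where Gpr3 passed (1.82, SE 0.41, limma adjusted p = 0.0039) and 123 genes were called in all. mKO replicate 3 has no partner there. Leaving out libraries gave 0 to 1 at E4.25 (mKO against WT), where the gene was Cdc25b. Its change was 1.44 (SE 0.38, limma adjusted p = 0.0251) without mKO replicate 3. There 1923 genes were called in all, against 1394 with every library. The change was 0.72 (adjusted p = 0.24) without mKO replicate 4. Bub1b passed without extraembryonic mHet replicate 1, in mHet against WT and between the tissues. More genes were then called in all than with every library. That fit leaves 1 mHet library in the tissue, so only changes are given. In mHet against WT the change of Bub1b was -1.06, but 0.35 without mHet replicate 2 and -0.35 with both. Between the tissues it was -0.48, against -0.25 with every library. With no filter on low values the count of members called was 1 between the tissues (Pde3a). The cause was not tested.

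The alternatives for the pathway list were chosen after seeing the data. Its count of 11 at E4.25 was 3 with a pseudocount of 0.1, 0 with no filter, 0 with median ratio scaling, 1 with Rn45s removed and 0 to 15 when libraries were left out. Its count of 9 between the tissues was 14 with median ratio scaling and 7 to 26 when libraries were left out.

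Same-numbered libraries had deviations that correlated from 0.51 to 0.56 at the 1-cell stage, 0.21 to 0.26 at the late 2-cell stage and 0.16 to 0.57 in the first E3.5 table. Each comparison there has 2 pairs, which give the same value by construction, since each group holds 2 libraries. The correlations ran from -0.33 to 0.71 in oocytes, -0.17 to 0.30 at the 8-cell stage, -0.41 to 0.70 in the second E3.5 table, 0.059 to 0.14 at E4.25 and -0.16 to -0.005 in the extraembryonic ectoderm. Epiblast columns carry no usable number. The first fits took the numbers as shared numbers only, and the signs at other stages do not decide whether the numbers pair libraries at a given stage. Every same-numbered pair correlated above 0 at the 1-cell stage, at the late 2-cell stage and in the first E3.5 table. The SEs given above for these stages leave that out. At the 1-cell stage, however, the number is the same division as the library set, and the values given above for that stage are without it. The replicate block changed no other call of a member.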
